A study of Homo sapiens with 3 samples.

Results

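The SR proteins and the heterogeneous nuclear ribonucleoproteins (hnRNPs) are the main families of RNA-binding proteins that decide which exons of a transcript are kept. The members described here are the protein-coding rows of the deposited count table whose symbol begins with SRSF and a digit, or with HNRNP. They number 33 of 21726 listed genes, with 12 SR protein genes and 21 hnRNP genes. RNA was sequenced from PC3-Luc, a line of PC3 prostate adenocarcinoma cells that carries a luciferase gene brought in with a pMSCV vector, which all groups share. The control group carries a control hairpin (shCtrl), and the other groups carry the hairpin sh718 or sh720 against CTHRC1, a secreted glycoprotein, with 3 libraries per line. The sources used here do not say whether each line is a clone or a pool of cells, or which vector delivers the hairpins. They also do not tie the 3 libraries to separate cultures, so the p-values rest on library-to-library spread that may be only technical.

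SR proteins bind exonic enhancer sequences through RNA recognition motifs and recruit the splicing machinery through a tail rich in arginine-serine repeats, which kinases of the SRPK and CLK families phosphorylate. Many hnRNPs bind silencer sequences and oppose them, although several act either way depending on where they bind. Both families also regulate their own messages, often by including an exon that leads to decay of the transcript. The counts here are per gene, so they show the amount of message and nothing of its splicing.

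CTHRC1, the targeted gene, stood at 99.1, 132 and 117 CPM (counts scaled to library size) in the control libraries, at 2.36, 2.02 and 1.06 in sh718, and at 18.5, 19.8 and 9.70 in sh720. Library totals ran from 883663 to 1108960 counts. The SR and hnRNP genes held 0.747% to 0.827% of all counts in control, 0.672% to 0.706% in sh718 and 0.783% to 0.820% in sh720. Epithelial markers were present and changed, with 1 of 5 tested higher and 2 lower in sh718 (KRT7 at -2.57 and EPCAM at -1.39 on the log2 scale) and 3 higher in sh720. This is 60% called in either line, against 20.4% of all tested genes in sh718 and 6.85% in sh720. The junction gene CDH1 had 15 counts over all libraries. The summed level of leukocyte markers (2 of 5 listed) was 0 CPM in every control library and at most 2.36 elsewhere, that of fibroblast markers (4 of 6 listed) 1.04 to 7.40 over all libraries, and that of neuronal markers (3 of 6) at most 2.25. Endothelial markers (2 of 4 listed) summed to 24.8 to 27.0 CPM in control, 55.4 to 64.6 in sh718 and 13.4 to 31.2 in sh720, and PECAM1 was higher in sh718 (log2 change 1.03, edgeR adjusted p 0.000263). Protein-coding transcripts of the mitochondrial genome, a sign of RNA quality, fell in 8 and rose in 1 of 13 cases in sh718, and fell in 6 in sh720. These are 69.2% and 46.2% called, against the same 20.4% and 6.85% of all tested genes. Their summed level was 87415 to 91264 CPM in control, 73950 to 77178 in sh718 and 69596 to 80392 in sh720. Both hairpin lines thus lay below control on this sum. The groups overlapped in the share of counts from all mitochondrial genome transcripts. It was 14.4%, 15.1% and 16.4% in the control libraries, 15%, 12.7% and 15.2% in sh718, and 15.1%, 13.6% and 12% in sh720. The part of these markers in the results below was not tested.

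Of the members, 32 passed the minimum of 60 counts over all 9 libraries and were tested with edgeR's quasi-likelihood test, fitted over all 9556 genes above that minimum. The one left out was SRSF12, with 2 counts, both in sh720. A gene was called at a Benjamini-Hochberg adjusted p under 0.05 over all genes tested, and each change is given on the log2 scale with its standard error (SE). In sh718 against control, 1 member was higher and 7 lower, or 25%, where 20.4% of all tested genes were called (9.56% higher and 10.8% lower). In sh720 against control 3 were higher and 1 lower, or 12.5%, against 6.85% of all tested genes (3.43% higher and 3.42% lower). In sh718 against sh720, the test of a difference between the hairpin lines, 4 were higher and 6 lower, or 31.2%, against 25.3% of all tested genes (12.3% higher and 13% lower). With library totals alone this last split was 1 higher and 10 lower, and with the trend with GC content and length removed the sh718 split against control was 3 higher and 6 lower. DESeq2 called 4, 0 and 5 members in the 3 comparisons, where it called 10.5%, 3.12% and 13.5% of all tested genes. In sh720, 5 members had an unadjusted p under 0.05 in each tool. The share of all tested genes under that threshold was not counted, so no count at an unadjusted p in this report has a reference. Libraries of the groups did not overlap for 2 members higher and 8 lower in sh718 against control (16.3% and 17.1% of all tested genes), 3 and 2 in sh720 against control (11.6% and 11.9%), and 4 and 9 in sh718 against sh720 (18.2% and 18.8%). The median change of the 32 members was -0.08 in sh718 and -0.01 in sh720, and that of all tested genes 0.00237 and 0.00151. Both comparisons against control use the same control libraries.

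Of 21 hnRNP genes, 5 were lower and none higher in sh718 against control, with a median change of -0.09. This is 23.8% called, against 20.4% of all tested genes (9.56% higher and 10.8% lower). At an unadjusted p under 0.05, 7 hnRNP genes passed in edgeR and 5 in DESeq2, with no share of all tested genes to set beside them. Of 11 tested SR protein genes, 1 was higher and 2 lower, or 27.3% against the same 20.4%, with a median of -0.08. In sh720 the counts were 1 higher and none lower for hnRNP genes, and 2 higher and 1 lower for SR protein genes. These are 4.76% and 27.3% called, against 6.85% of all tested genes. In sh720, 1 hnRNP gene had an unadjusted p under 0.05 in each tool. The difference between the families was not tested. As a share of all counts, hnRNP genes took 0.574% to 0.656% in control, 0.496% to 0.530% in sh718 and 0.605% to 0.646% in sh720, so that every sh718 library lay below all others. After TMM scaling the summed levels were 5842 to 6635, 5188 to 5448 and 5975 to 6464 CPM, in the same order. A few members made up much of this: the mean sum was 6203 CPM in control and 5323 in sh718, where HNRNPA2B1 went from 895 to 501, HNRNPF from 352 to 190 and HNRNPH3 from 202 to 130. The share of SR protein genes overlapped between control and sh718, at 0.170% to 0.173% and 0.170% to 0.176%, and was 0.175% to 0.179% in sh720. After TMM scaling the order was another, with summed levels of 1723 to 1760 CPM in control, 1775 to 1841 in sh718 and 1680 to 1776 in sh720, so that sh718 lay above control and sh720 overlapped with it.

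**Figure D1:**
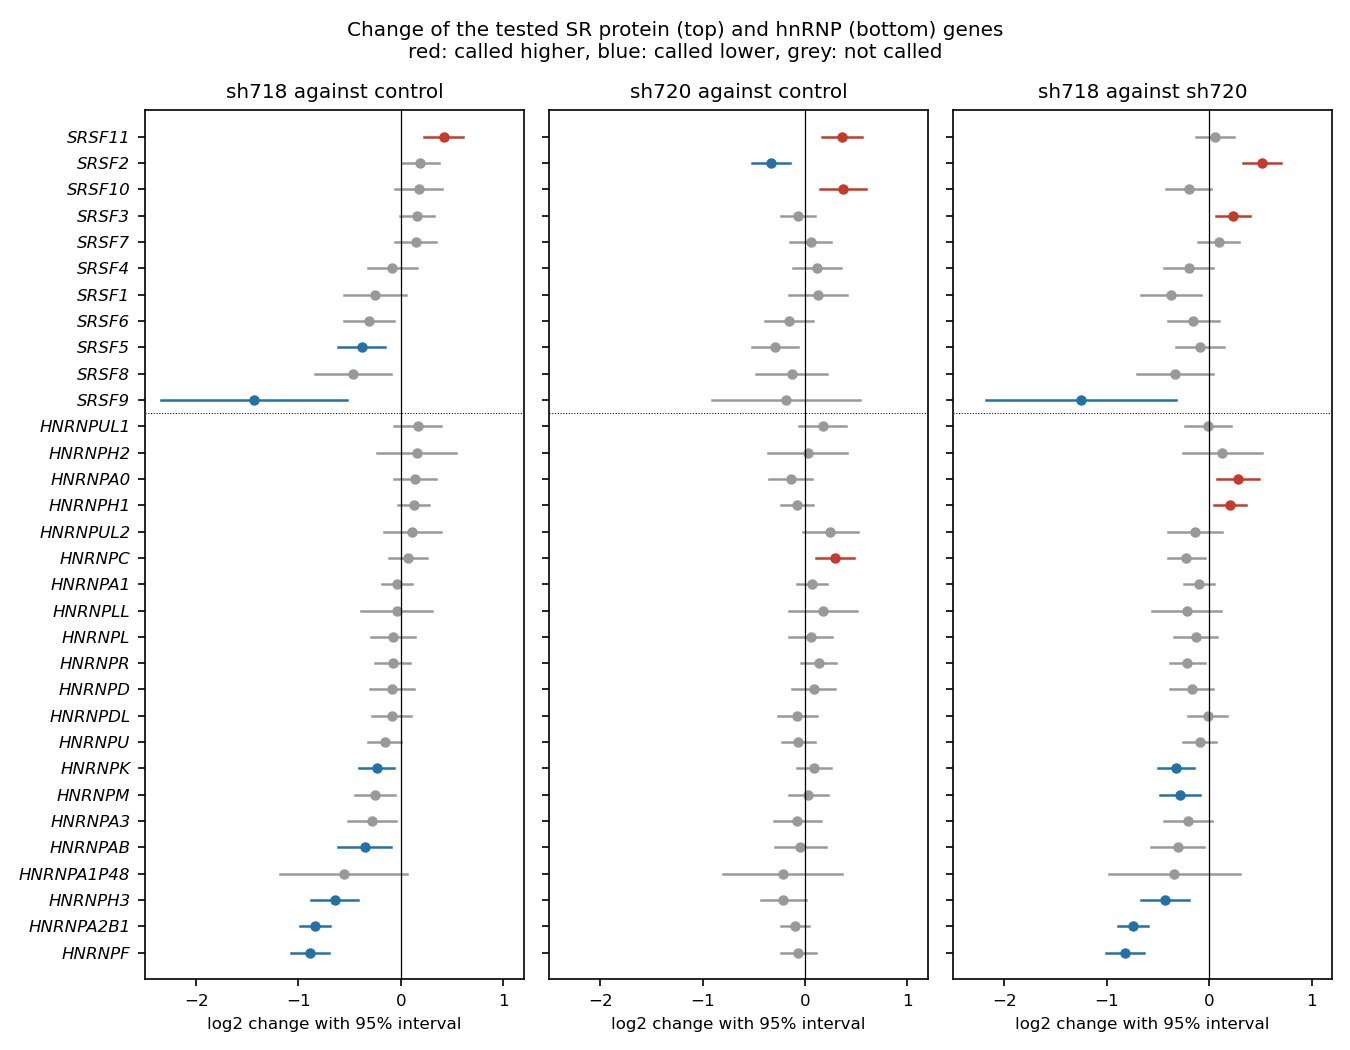
Log2 change with its 95% interval (horizontal axis) for each of the 32 tested members (vertical axis), in each hairpin line against control and between the hairpin lines, SR protein genes above the dotted line and hnRNP genes below it. HNRNPF, HNRNPA2B1 and HNRNPH3 lie lowest among hnRNP genes in sh718, at -0.88, -0.84 and -0.65, and at -0.06, -0.10 and -0.21 in sh720.

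HNRNPA2B1 (ENSG00000122566, GRCh38 chromosome 7, 26173057 to 26201529, minus strand) encodes an hnRNP of the A/B group that silences exons and also takes part in RNA transport. It had the highest counts of all members. Its level was 911, 827 and 946 CPM in the control libraries, 519, 528 and 457 in sh718, and 907, 789 and 818 in sh720. All sh718 libraries were thus far below all others, while control and sh720 overlapped. The change in sh718 was -0.84 (SE 0.07, adjusted p 5.14e-15), a ratio of 0.559. In sh720 it was -0.10 (SE 0.07, adjusted p 0.496), with a 95% interval from -0.23 to 0.04. The difference between the hairpin lines was -0.74 (SE 0.07, adjusted p 4.05e-13).

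HNRNPF (ENSG00000169813, chromosome 10, 43385617 to 43409166, minus strand) encodes a protein that binds runs of G in RNA and belongs with HNRNPH1, HNRNPH2 and HNRNPH3 to the F/H group. It stood at 368, 362 and 326 CPM in control, 176, 212 and 182 in sh718, and 328, 331 and 349 in sh720. Every sh718 library lay below every other library. The change was -0.88 in sh718 (SE 0.09, adjusted p 9.09e-12), a ratio of 0.542, and -0.06 in sh720 (interval -0.23 to 0.11, adjusted p 0.761). The hairpin lines differed by -0.82 (SE 0.09, adjusted p 7.5e-11).

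HNRNPH3 (ENSG00000096746, chromosome 10, 68331174 to 68343191, plus strand) was the other F/H member that fell in sh718. Its libraries read 179, 187 and 241 CPM in control, 137, 115 and 140 in sh718, and 173, 191 and 164 in sh720. The sh718 libraries were again below all others. The change was -0.65 in sh718 (SE 0.12, adjusted p 1.3e-05), a ratio of 0.639, and -0.21 in sh720 (SE 0.11, interval -0.43 to 0.00, adjusted p 0.28). The lines differed by -0.43 (SE 0.12, adjusted p 0.00366).

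These 3 calls, those against sh720 included, were kept in each of 18 alternative settings, DESeq2 and the omission of each library among them. HNRNPA2B1 ranged from -0.89 to -0.77, HNRNPF from -0.97 to -0.83 and HNRNPH3 from -0.73 to -0.49 in sh718 over these settings.

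The other F/H members were not called against control. HNRNPH1 (ENSG00000169045) stood at 497, 549 and 471 CPM in control, 523, 579 and 546 in sh718, and 514, 488 and 431 in sh720. Its libraries overlapped between control and either line, with changes of 0.12 (adjusted p 0.269) and -0.08 (adjusted p 0.642). Between the hairpin lines it was higher in sh718 by 0.20 (SE 0.08, adjusted p 0.0413), a call lost in 7 alternative settings. HNRNPH2 lay at 0.15 in sh718 (interval -0.23 to 0.54) and 0.02 in sh720.

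**Figure D2:**
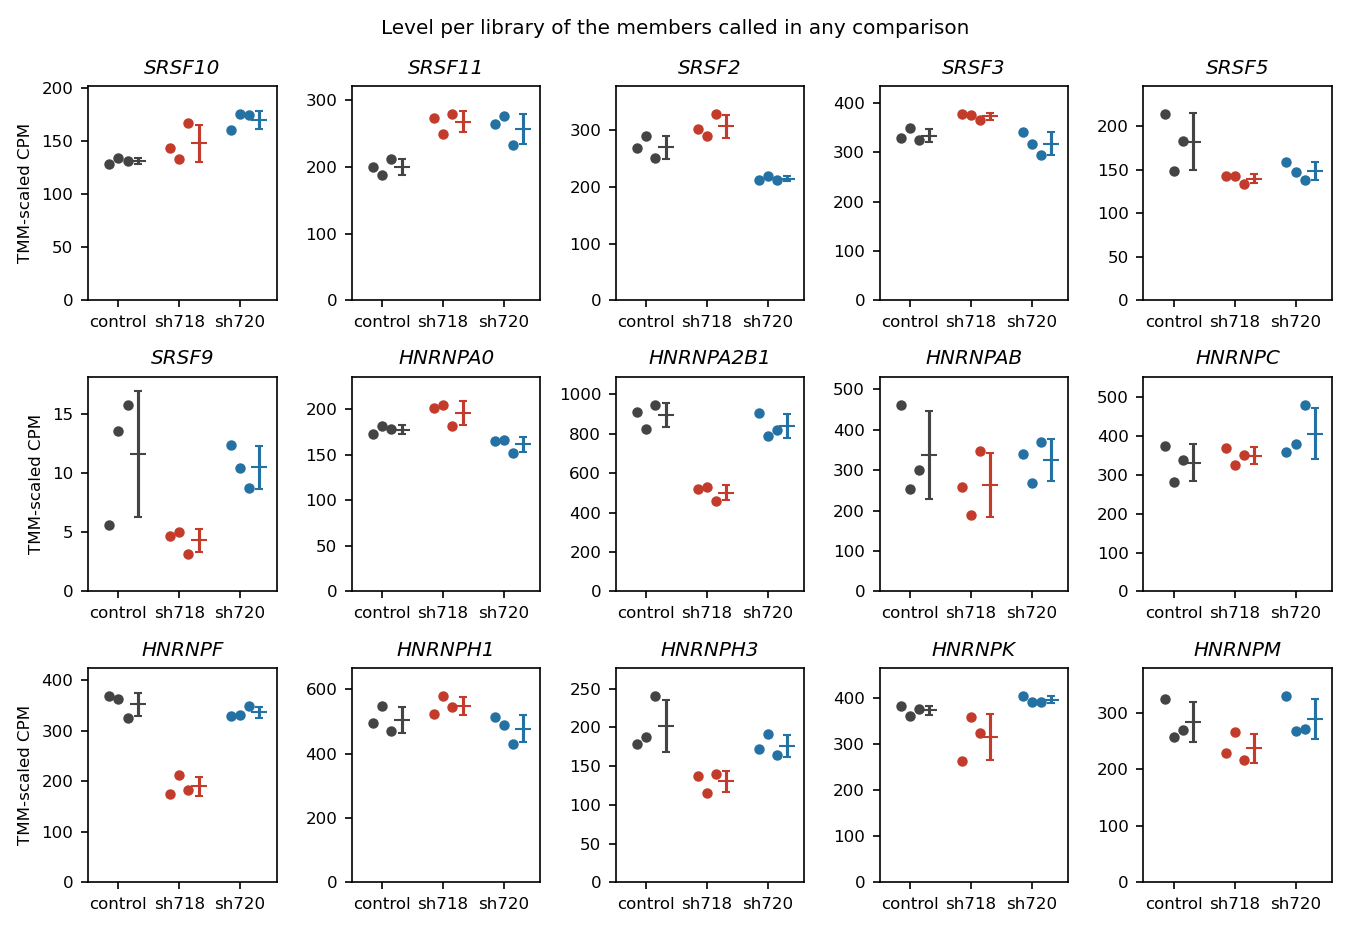
TMM-scaled CPM (vertical axis) in each of the 3 libraries of control, sh718 and sh720 for the 15 members called in any comparison, with the mean and SD beside the points. The sh718 libraries of HNRNPA2B1 read 457 to 528 CPM, below every control library, and both hairpin lines lie above control for SRSF11.

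The upstream bases of HNRNPA2B1, HNRNPF and HNRNPH3, the 3 of 7 lower members whose sh718 calls were kept in all settings, and of SRSF11, the member that rose in both lines, are shown so that they can be compared. They are the 250 bases before the RefSeq start (GRCh38.p14), 5′ to 3′ on the gene's strand. Capitals mark matches, on either strand, to GGGCGG (the GC box), CCAAT (the CCAAT box), CCGGAA (the core of ETS factor sites) and TATAAA (the TATA box).
HNRNPA2B1, chr7:26200747-26200996, minus strand: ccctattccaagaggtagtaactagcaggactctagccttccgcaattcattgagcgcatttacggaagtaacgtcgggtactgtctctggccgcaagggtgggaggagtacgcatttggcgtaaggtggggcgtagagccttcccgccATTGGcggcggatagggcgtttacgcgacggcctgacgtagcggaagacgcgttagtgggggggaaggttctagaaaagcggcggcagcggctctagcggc
HNRNPF, chr10:43408858-43409107, minus strand: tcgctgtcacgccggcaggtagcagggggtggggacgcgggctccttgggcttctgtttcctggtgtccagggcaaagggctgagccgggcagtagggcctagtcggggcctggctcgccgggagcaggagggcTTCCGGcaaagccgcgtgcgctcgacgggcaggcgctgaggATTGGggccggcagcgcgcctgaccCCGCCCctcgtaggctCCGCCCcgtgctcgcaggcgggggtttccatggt
HNRNPH3, chr10:68331443-68331692, plus strand: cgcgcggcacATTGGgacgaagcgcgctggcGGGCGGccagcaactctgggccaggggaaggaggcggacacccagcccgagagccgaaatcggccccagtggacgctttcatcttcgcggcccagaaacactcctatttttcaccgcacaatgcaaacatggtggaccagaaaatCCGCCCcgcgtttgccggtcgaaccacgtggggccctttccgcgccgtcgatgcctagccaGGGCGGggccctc
SRSF11, chr1:70221130-70221379, plus strand: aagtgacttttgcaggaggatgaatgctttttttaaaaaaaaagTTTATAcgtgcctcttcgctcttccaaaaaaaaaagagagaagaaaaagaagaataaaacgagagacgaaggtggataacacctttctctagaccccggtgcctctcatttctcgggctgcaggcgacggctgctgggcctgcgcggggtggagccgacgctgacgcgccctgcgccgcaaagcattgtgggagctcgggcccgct
The windows of these 3 genes each hold 1 CCAAT match. HNRNPF holds 2 GC box matches and 1 ETS core match, HNRNPH3 holds 3 GC box matches, HNRNPA2B1 holds neither of these motifs, and SRSF11 holds 1 TATA match and none of the other motifs. The motifs were common among members and elsewhere. Of the 30 members with an entry, 50% held CCAAT and 63.3% GGGCGG, against 32% and 42.6% of 35116 windows of the same length. The sets are unlike: each member gave 1 window, while the 35116 were not held to 1 per gene or to genes tested here. CCGGAA was in 20% of members and 14.5% of all windows, and TATAAA in 16.7% and 10.7%. SRSF2, HNRNPA1 and HNRNPA1P48 had no entry. A match is a description of the letters only. Each of the 4 genes has annotated transcripts in GENCODE that start upstream of the RefSeq start used.

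The neighbours of these genes, looked at after the values were seen, moved in different ways. HNRNPA2B1 lies head to head with CBX3, which encodes a heterochromatin protein, and their annotated ends overlap. NFE2L3, on the plus strand from 26152240 to 26187125, overlaps the other end of HNRNPA2B1. Of the 75-base words in HNRNPA2B1 transcripts, read on both strands, 3.04% also occur in CBX3 and none in another gene. CBX3 was higher in sh718, at 0.26 (SE 0.08, adjusted p 0.0134), while HNRNPA2B1 was lower, and its call was lost in 3 of 18 settings. Over all tested genes, 9.56% were called higher and 10.8% lower in sh718. Of 10 tested genes within 1 Mb of HNRNPA2B1, 2 were called higher and 1 lower in sh718, with a median of 0.18. The lower one was NFE2L3, at -0.63 against control (adjusted p 0.000192) and -0.82 against sh720 (adjusted p 4.92e-07), both kept in all 18 settings. Around HNRNPF, all 6 tested neighbours lay below 0 in sh718, with a median of -0.45, and 1 of them was called, ZNF32 (-1.38, adjusted p 0.0117). ZNF32 had 93 counts in all, and its call was lost with DESeq2 (adjusted p 0.0897) and without sh718 library 1 (0.0799). In sh720, 2 of those 6 neighbours lay below 0, with a median of 0.14. There 1 was called higher, where 3.43% of all tested genes were. Around HNRNPH3, all 14 tested neighbours lay below 0 in sh718 and 9 were called lower, where 10.8% of all tested genes were. The median of the 14 was -0.66, close to the change of HNRNPH3 itself. In sh720 the median of those 14 was -0.47 and 7 were called lower, where 3.42% of all tested genes were. SRSF11 had 5 tested neighbours, 3 of them below 0 and 1 called lower, with a median of -0.34 in sh718. Whether the changes of HNRNPF and HNRNPH3 are those of their chromosome stretch was not tested.

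**Figure D3:**
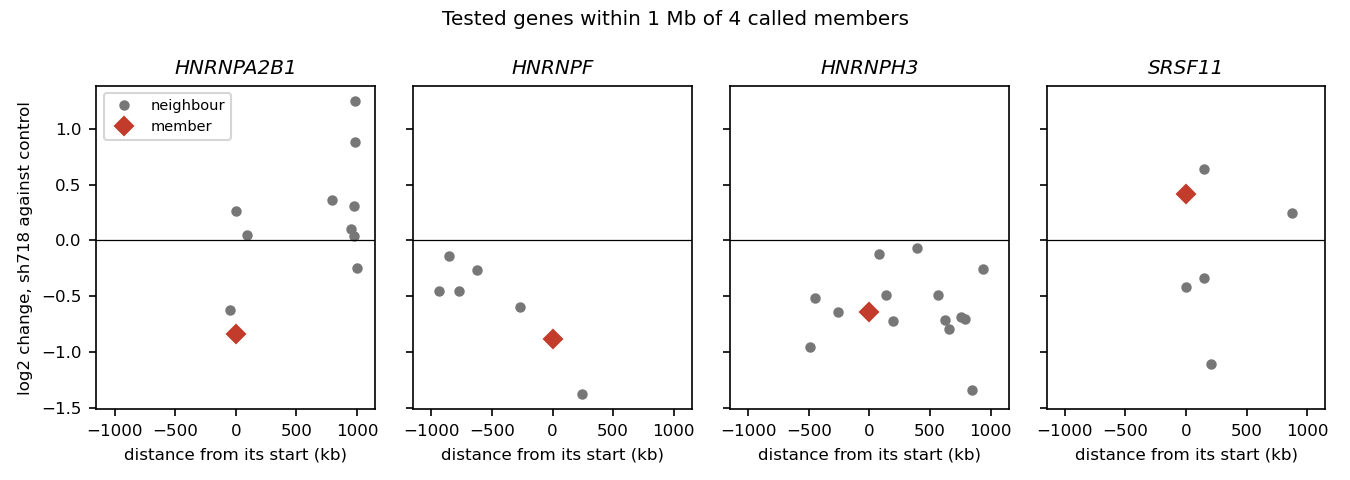
Log2 change in sh718 against control (vertical axis) of the tested genes within 1 Mb of HNRNPA2B1, HNRNPF, HNRNPH3 and SRSF11, by distance of their starts in kb in the order of the genome (horizontal axis). All 6 neighbours of HNRNPF and all 14 of HNRNPH3 lie below 0, while those of HNRNPA2B1 and SRSF11 lie on both sides.

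HNRNPA1, the close relative of HNRNPA2B1 and a widely studied exon silencer, stood at 516, 498 and 488 CPM in control, 470, 511 and 483 in sh718, and 542, 523 and 507 in sh720. The libraries overlapped throughout, and the 95% interval of the change ran from -0.18 to 0.11 around -0.04 in sh718, and from -0.08 to 0.21 around 0.07 in sh720. Of all words of 75 bases, the read length, in annotated HNRNPA1 transcripts, 20.2% also occur in transcripts of other genes, so its counts are uncertain. The row HNRNPA1P48, which is classed as protein coding but bears a pseudogene name, shares 43.8% of its words, HNRNPA1 among the genes it shares them with, and lay at -0.56 in sh718 (interval -1.18 to 0.06, adjusted p 0.213). Another 23 rows of these families are classed as pseudogenes, and together they held 66 counts.

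HNRNPA3 lay at -0.28 in sh718 (SE 0.12, adjusted p 0.0776) and -0.07 in sh720. In 2 of 18 settings it was called lower in sh718, the replicate block (adjusted p 0.0457) and the omission of sh718 library 2 (0.00798). It shares 14.3% of its 75-base words with other genes, first the pseudogene HNRNPA3P6, which had 34 counts. HNRNPA0, an intronless member, read 172, 182 and 179 CPM in control, 202, 205 and 181 in sh718, and 165, 166 and 152 in sh720. It was called between the hairpin lines alone, at 0.28 (SE 0.10, adjusted p 0.0388), and that call was lost in 8 settings.

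HNRNPAB, a DNA- and RNA-binding relative of HNRNPD, was called lower in sh718, at -0.35 (SE 0.13, adjusted p 0.04). Its libraries varied widely within each line, at 462, 253 and 301 CPM in control, 258, 188 and 347 in sh718, and 340, 268 and 369 in sh720. Control and sh718 overlapped, and without control library 1 the change was -0.08 (adjusted p 0.733). Without sh718 library 2 it was -0.15 (adjusted p 0.446), and DESeq2 gave an adjusted p of 0.58. The difference of sh718 from sh720 was -0.31 (adjusted p 0.0698), not called in the main test but called in 7 of 18 settings.

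HNRNPK, a KH-domain protein that binds runs of C, read 383, 362 and 376 CPM in control, 263, 360 and 324 in sh718, and 405, 392 and 393 in sh720. The highest sh718 library lay just below the lowest control library. The change was -0.24 in sh718 (SE 0.09, adjusted p 0.0434), a call lost in 10 of 18 settings. Without sh718 library 1 it was -0.13 (adjusted p 0.36). Against sh720 the difference was larger, at -0.32 (SE 0.09, adjusted p 0.00319), and was lost without sh718 library 1 (-0.21, adjusted p 0.0742).

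HNRNPM, which binds GU-rich RNA, was not called against control, at -0.25 in sh718 (adjusted p 0.0591) and 0.03 in sh720, although it was called lower in sh718 in 7 of 18 settings, the replicate block (adjusted p 0.0471) among them. Its libraries were 324, 257 and 270 CPM in control, 230, 266 and 216 in sh718, and 330, 267 and 271 in sh720. The difference between the hairpin lines was -0.28 (SE 0.10, adjusted p 0.0256), lost in 4 settings.

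HNRNPC, which binds U-rich tracts, was the hnRNP gene called in sh720 against control. It read 375, 282 and 339 CPM in control, 359, 380 and 480 in sh720, and 370, 326 and 351 in sh718. Control and sh720 overlapped, and sh720 library 3 was the highest. The change was 0.29 (SE 0.09, adjusted p 0.0358), and 0.15 without that library (adjusted p 0.48). Without control library 2 it was 0.19 (adjusted p 0.326), and without control library 3 the adjusted p was 0.0824. In sh718 HNRNPC lay at 0.07. The difference of sh718 from sh720 was -0.22 (adjusted p 0.0639), not called in the main test but called in 5 of 18 settings.

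The remaining hnRNP genes were called in no comparison of the main test. HNRNPU, a nuclear scaffold protein gene and the second most counted member, read 805, 613 and 675 CPM in control, 648, 693 and 532 in sh718, and 734, 582 and 683 in sh720. Its libraries overlapped, with changes of -0.16 (adjusted p 0.173) in sh718 and -0.07 (adjusted p 0.734) in sh720. Its relatives HNRNPUL1 and HNRNPUL2 lay at 0.16 and 0.11 in sh718, and 0.18 and 0.25 in sh720. HNRNPD, known for binding AU-rich elements, and HNRNPDL lay at -0.09 each in sh718, and at 0.08 and -0.07 in sh720. HNRNPL, which binds CA repeats, and HNRNPLL lay at -0.07 and -0.04 in sh718, and 0.06 and 0.18 in sh720. HNRNPR lay at -0.08 and 0.13, and was called lower in sh718 than in sh720 in 5 of 18 settings. HNRNPUL2 shares 42.8% of its words with the readthrough gene HNRNPUL2-BSCL2, so its counts are uncertain.

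Among SR proteins, SRSF11 (ENSG00000116754, chromosome 1, 70205682 to 70253052, plus strand) was the one member of either family called in the same direction in both lines. It encodes an arginine-serine-rich protein linked to recognition of the 3′ splice site. It stood at 199, 187 and 211 CPM in control, 273, 249 and 279 in sh718, and 263, 276 and 232 in sh720. All hairpin libraries were above all control libraries, and the hairpin lines overlapped. The change was 0.42 in sh718 (SE 0.10, adjusted p 0.000764), kept in all 18 settings. In sh720 it was 0.36 (SE 0.10, adjusted p 0.00992), and the call was lost with DESeq2 (adjusted p 0.0635) and without sh720 library 1 (0.0506), sh720 library 2 (0.095) or control library 2 (0.0724). The hairpin lines differed by 0.06 (interval -0.13 to 0.24).

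SRSF2 (ENSG00000161547, chromosome 17, 76734115 to 76737374, minus strand), a nuclear SR protein gene, lay on opposite sides of control in the 2 lines. It read 268, 290 and 251 CPM in control, 302, 289 and 329 in sh718, and 212, 219 and 211 in sh720. The sh720 libraries were below all control libraries, while sh718 overlapped with control. The change was -0.33 in sh720 (SE 0.09, adjusted p 0.0172) and 0.19 in sh718 (SE 0.09, adjusted p 0.134). The sh720 call was lost with DESeq2 (adjusted p 0.0836), with library totals alone (0.0539) and without sh720 library 1 (0.0537), sh720 library 3 (0.0677) or control library 2 (0.128). The difference between the lines, 0.52 (SE 0.09, adjusted p 9.18e-06), was kept in all 18 settings. In annotated transcripts 26% of the words of SRSF2 are shared, with MFSD11 and MIR636, and MFSD11 had 44 counts in all.

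SRSF3, the shortest SR protein and the SR protein gene with the highest counts, read 328, 348 and 324 CPM in control, 377, 376 and 365 in sh718, and 340, 317 and 295 in sh720. The sh718 libraries lay above all others, but the change against control was not called (0.16, SE 0.08, adjusted p 0.171). Against sh720 it was 0.23 (SE 0.08, adjusted p 0.0314), lost in 8 settings.

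SRSF10, a splicing regulator whose activity depends on its phosphorylation, was higher in sh720. Its libraries were 128, 134 and 131 CPM in control, 160, 176 and 175 in sh720, and 144, 133 and 167 in sh718. The sh720 libraries lay above all control libraries. The change was 0.37 (SE 0.11, adjusted p 0.0263), and the call was lost in 8 of 18 settings, among them the omission of any 1 control library (adjusted p 0.0571 to 0.0951) and of sh720 library 2 or 3 (0.105 and 0.103). In sh718 SRSF10 lay at 0.17 (adjusted p 0.315), and the difference of sh718 from sh720 was not called (-0.20, adjusted p 0.187).

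SRSF5 was lower in sh718. It read 214, 149 and 183 CPM in control, 143, 143 and 134 in sh718, and 159, 148 and 139 in sh720. The sh718 libraries were below all control libraries, of which library 1 was the highest. The change was -0.38 (SE 0.12, adjusted p 0.0115), and -0.26 without control library 1 (adjusted p 0.152). It was also lost with DESeq2 (0.0827), without sh718 library 3 (0.0522) and with the trend with GC content and length removed (0.0604). In sh720 the change was -0.29 (SE 0.11, adjusted p 0.112), and it was called lower in 1 of 18 settings, without control library 2 (0.0225). The difference of sh718 from sh720 was -0.09 (adjusted p 0.651) and was not called.

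SRSF9 had 77 counts in all, the fewest of the tested members. Its counts were 5, 12 and 17 in the control libraries, 4, 5 and 3 in sh718, and 12, 10 and 9 in sh720. In counts sh718 library 2 and control library 1 were equal, and after scaling the sh718 libraries lay below the others, at 5.04 CPM at most against 5.63 in control library 1. The change was -1.44 in sh718 (SE 0.45, adjusted p 0.0164), the one change of 2-fold or more among the members, and -0.18 in sh720. DESeq2 gave an adjusted p of 0.125 in sh718, and the call was also lost without sh718 library 3 (0.0751), control library 2 (0.0572) or control library 3 (0.149). Against sh720 it was -1.25 (SE 0.46, adjusted p 0.0384), lost in 8 settings. SRSF9 shares 42.7% of its 75-base words with the neighbouring gene GATC, which had 297 counts and lay at -0.06 in sh718.

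The other SR protein genes were called in no comparison of the main test. SRSF1, a shuttling SR protein and a known oncogene product, lay at -0.25 in sh718 (SE 0.15, adjusted p 0.257) and 0.12 in sh720, with 51.8% of its words shared with the overlapping genes AC015813.2 and AC015813.5. SRSF6 lay at -0.31 (adjusted p 0.0619) and -0.16, and SRSF8, an SR protein gene derived from a copy of SRSF2, at -0.47 (SE 0.18, adjusted p 0.0616) and -0.13. Against control in sh718, SRSF6 was called lower in 5 of 18 settings, the replicate block (adjusted p 0.0401) and the omission of control library 1 (0.0138) among them, and SRSF8 in 3. SRSF1 was called lower in sh718 than in sh720 in 5 settings. SRSF4 lay at -0.08 and 0.12, and SRSF7, which helps export messages from the nucleus, at 0.15 and 0.05. In all, 15 members were called in at least 1 comparison and 17 in none.

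Levels of different genes can be set side by side only per length. Per kilobase of merged annotated exons, the control level was 158 CPM for HNRNPAB, 108 for HNRNPF, 98.3 for HNRNPA1, 96.5 for HNRNPA2B1 and 89.3 for SRSF2. SRSF9 had the lowest level of a tested member on this scale, at 3.11 CPM per kilobase. The order assumes reads spread evenly over all annotated exons, and the sources used here do not say how the libraries were primed.

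Genes that work with these families were read from the same fit, from lists chosen for their function. SR-related proteins, which share the arginine-serine tail or act beside SR proteins, had 5 of 30 tested genes higher and none lower in sh718, or 16.7% called against 20.4% of all tested genes. An unadjusted p under 0.05 was found for 14 in edgeR and 9 in DESeq2, again with no share of all tested genes to set beside them. ARGLU1 (0.70, adjusted p 5.84e-05), THRAP3 (0.37), the nuclear speckle protein gene SRRM2 (0.39) and RSRC2 (0.38) were among them. In sh720, where 6.67% of the list was called against 6.85% of all tested genes, SRRM2 was lower instead (-0.62, adjusted p 0.000286) and TRA2B, an SR-like exon activator, higher (0.30, adjusted p 0.0191). SRRM2 differed between the hairpin lines by 1.01 (adjusted p 3.93e-10). The median of the list was 0.15 in sh718 and 0.11 in sh720.

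Of 12 tested kinases and import factors for SR proteins, none was called in sh720, where none had an unadjusted p under 0.05 in edgeR or DESeq2 either. In sh718 AKT1, a growth-signalling kinase that can phosphorylate SR proteins, was lower (-0.75, adjusted p 0.000131), and no other was called (8.33% of the list against 20.4%). Between the hairpin lines 1 was higher and 1 lower in sh718, or 16.7% of the list against 25.3% of all tested genes. The lower one was AKT1, a call kept in all 18 settings, at -0.81 to -0.66 over them. CLK1 was higher in sh718 than in sh720 (0.68, adjusted p 0.0326), a call lost in 6 of 18 settings. Among them were DESeq2 (0.155) and the omission of sh718 library 3 (0.148) or sh720 library 1 (0.145). The most counted members of this list were PPIG and SRPK1.

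Other RNA-binding splicing regulators had 4 higher and 7 lower of 39 tested in sh718, or 28.2% against 20.4% of all tested genes, and 1 higher and 1 lower in sh720, or 5.13% against 6.85%. The poly-C-binding protein gene PCBP2 (-0.45), the cold-induced RBM3 (-0.43), ILF2 (-0.37) and TIAL1 (-0.58) were lower in sh718. RALY, an hnRNP outside the naming pattern, was higher (0.47), as were RBFOX2 (0.54), RBM10 (0.55) and NONO (0.27). In sh720 RBM10 was higher (0.51) and ILF2 lower (-0.41). Between the hairpin lines 2 were higher and 7 lower in sh718, or 23.1% against 25.3% of all tested genes, with KHDRBS3 at -0.67 and CELF1 at -0.59.

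The spliceosome core had 6 higher and 6 lower of 37 tested genes in sh718, or 32.4% against 20.4% of all tested genes, and 5.41% against 6.85% in sh720. PRPF8, the central scaffold of the catalytic spliceosome, fell by 1.19 (adjusted p 2.63e-07) and SART1 by 0.61, SNRNP200 by 0.41 and SNRNP40 by 0.62. The Sm protein genes SNRPB (0.32) and SNRPD1 (0.24) were higher, with SF3B5 (0.32) and PRPF6 (0.32). In sh720 SF1, which recognises the branch point, was higher (0.40) and SNRPD2 lower (-0.30). Of 16 tested exon junction and nonsense-mediated decay factors, UPF1 (0.59) and SMG9 (0.80) were higher and the export factor gene ALYREF lower (-0.998, adjusted p 1.64e-07) in sh718, while in sh720 EIF4A3 was lower (-0.45). That list had 18.8% called in sh718 and 6.25% in sh720, against the same 20.4% and 6.85%. Among the related genes named for sh718 against control, the calls for AKT1, ARGLU1, THRAP3, PCBP2, RBM3, ILF2, RALY, RBFOX2, PRPF8, SART1, SNRPB, UPF1 and ALYREF were kept in all 18 settings, and the others were lost in 1 to 8. For sh720 the calls for SRRM2 and ILF2 were kept in all 18, and the others were lost in 4 to 7.

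**Figure D4:**
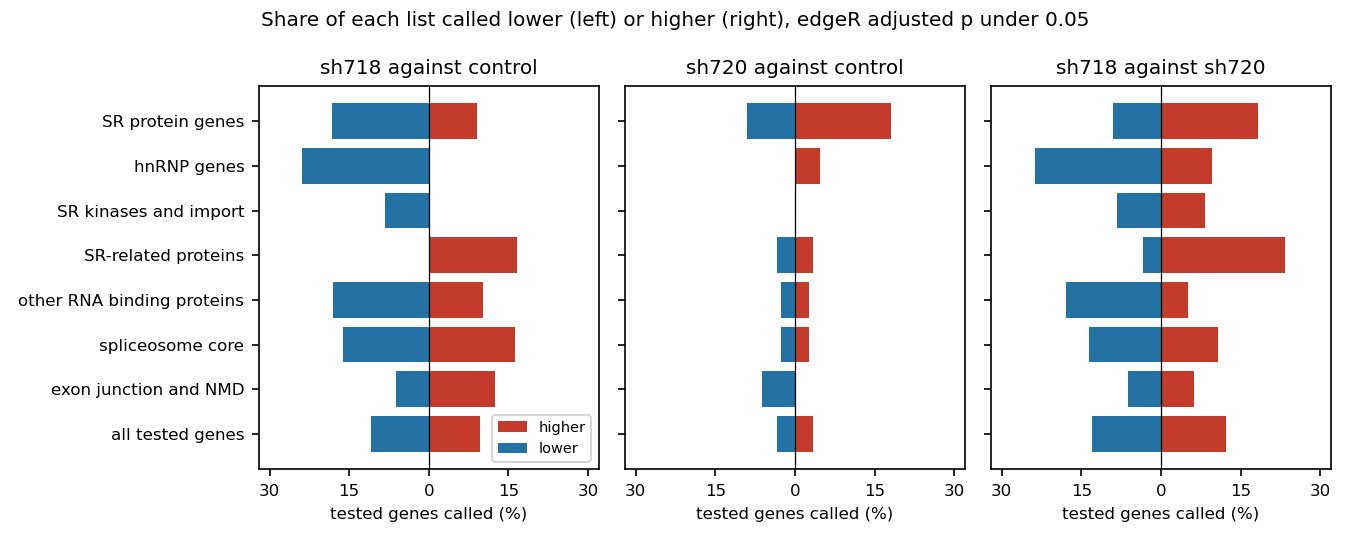
Share of tested genes called lower (bars to the left) and higher (bars to the right), in percent, for the SR protein and hnRNP genes, 5 lists of related genes and all 9556 tested genes, in the 3 comparisons. For hnRNP genes in sh718 against control the bars show 5 of 21 lower and none higher. This is 23.8% called, against 20.4% of all tested genes (9.56% higher and 10.8% lower).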

How the data were processed

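RNA from 3 PC3-Luc lines, grown for 24 h, was sequenced as single reads of 75 bp, per the labels' protocols. The authors deposited raw counts per gene in 9 columns, 3 per line, with 1 GEO sample per line. Trim Galore and GRCh38 were used, per the submitters' processing notes. The aligner, counter, strand setting and annotation were not given in the sources used here, so overlapping and near-identical genes are uncertain.

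The main test was glmQLFTest after glmQLFit in edgeR 4.0.16 (R 4.3.3), with TMM scaling, on the counts of all 9 libraries, for 9556 genes with 60 or more counts in all, with DESeq2 1.42.0 as an alternative. The SE is the log2 change over the root of the F statistic. Levels are CPM on TMM-scaled totals, which at 883663 to 1108960 counts per library limit precision for low genes. Positions, exon lengths and 75-base words came from GENCODE 29, and upstream sequences from RefSeq. The script was tested on simulated data.

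Columns carry numbers 1 to 3 in each line. Same-numbered libraries correlated at -0.0127 to 0.0219 after removal of line means, over 9 pairs, so the numbers were not taken as pairs and the main fit has no block. Of each related list, at most 4 called genes per comparison and direction were named, by adjusted p, and otherwise the 2 with the highest counts. Members and lists were chosen with earlier results of these data known. Alternatives were RLE scaling, library totals, DESeq2, no filter, a minimum of 180 counts, 6 libraries, each library left out, a replicate block, no mitochondrial transcripts, and removal of the GC content and length trend.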

Additional observations from a re-analysis of the deposited data

Results flagged for a closer look

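For 10 members the change against control differed between the hairpin lines by the edgeR test of sh718 against sh720 (Benjamini-Hochberg adjusted over 9556 genes). The log2 difference was -0.74 for HNRNPA2B1, -0.82 for HNRNPF, -0.43 for HNRNPH3, -0.32 for HNRNPK, -0.28 for HNRNPM and -1.25 for SRSF9, all lower in sh718. It was 0.52 for SRSF2, 0.23 for SRSF3, 0.28 for HNRNPA0 and 0.20 for HNRNPH1, all higher in sh718. In this comparison 25.3% of all tested genes were called. The calls for HNRNPA2B1, HNRNPF, HNRNPH3 and SRSF2 were kept in all 18 alternative settings, and the other 6 were lost in at least 1.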

How the results depend on the processing

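Of the members called in sh718 against control, 4 of 8 kept their call in all 18 alternatives (HNRNPA2B1, HNRNPF, HNRNPH3 and SRSF11), in sh720 against control 0 of 4, and in sh718 against sh720 4 of 10. No called change reversed its direction. Uncalled members gained a call in at least 1 alternative in 7, 1 and 5 cases in these comparisons. With DESeq2 the members called were 4 in sh718, 0 in sh720 (5 at an unadjusted p under 0.05, as with edgeR) and 5 between the lines. DESeq2 called 10.5%, 3.12% and 13.5% of all tested genes in these comparisons, against 20.4%, 6.85% and 25.3% with edgeR. With the GC content and length trend removed, 2 were called in sh720, 3 rather than 1 were higher in sh718 (SRSF2 and SRSF3 joining SRSF11), and the cause was not tested. With library totals only, 1 member was higher and 10 lower between the lines, where TMM gave 4 and 6. Leaving out 1 library gave 5 to 12 members in sh718, 1 to 4 in sh720 and 7 to 12 between the lines. The value of 5 was without sh718 library 3. In sh720, 2 were called without sh720 library 1, sh720 library 2 or control library 3, and 1 without sh720 library 3 or control library 2. The 1 called without control library 2 was SRSF5, which the main test did not call, so none of the 4 main calls was kept there. The replicate block gave 11, 4 and 13 members, each count within 1.5 times that without it. At these depths changes of low genes such as SRSF9 are poorly bounded (-2.34 to -0.53), and SRSF12 was not testable.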

Other observations

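A few rows of splicing genes had very low counts, as SRSF9 did. The poly-C-binding protein gene PCBP1 had 2 counts over all libraries, while its relative PCBP2 had 2262. The splicing factor gene U2AF1 had 22 counts, and the nuclear matrix protein gene MATR3, listed in 2 rows, had 15 in one of them. Whether shared sequence has a part in these counts was not tested. In annotated transcripts, PCBP1 shares 44.5% of its 75-base words with the antisense gene PCBP1-AS1, and U2AF1 shares 91.8% with other genes, U2AF1L5 first. The 2 MATR3 entries share 38.3% and 80.8%, in part with each other. PCBP2 shares 28.9%, SRSF1 with 652 counts 51.8%, HNRNPUL2 with 855 counts 42.8% and SRSF2 with 2254 counts 26%. SNRPB shares 13.6% and NONO 4.5%, while TRA2B with 2501 counts and KHDRBS1 with 3091 share 0%. These genes were picked after their counts were seen, and the sources used here do not say how reads matching more than 1 gene were treated.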
